A study of Mus musculus with 6 samples.

Results

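The triad is the junction where a T-tubule, an inward fold of the muscle membrane, meets the terminal cisternae of the sarcoplasmic reticulum. Depolarisation of the T-tubule is sensed by the dihydropyridine receptor, which is mechanically coupled to the ryanodine receptor, and the ryanodine receptor then releases the calcium that triggers contraction. Junctophilins hold the membranes together, and further proteins target or clamp the channels at the junction. The genes described here are 10 components of this machinery, taken by symbol from the 24411 symbols of the count tables: the voltage sensor genes Cacna1s, Cacnb1 and Cacng1, the adaptor genes Stac3 and Jsrp1, the release channel genes Ryr1 and Ryr3, and the junctional genes Trdn, Jph1 and Jph2. All 10 passed the filter on low counts, as did 13076 symbols in all.

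RNA came from C2C12, an immortalised mouse myoblast line of wild-type genotype per the labels, differentiated into myotubes in horse serum. The cultures then received 10 µM Sardomozide, an inhibitor of the enzyme encoded by Amd1, or DMSO, each for 72 h. There were 3 libraries per group, and the comparison asks how myotube transcripts differ under the inhibitor. The line is 1 immortalised cell line, and the labels leave it unstated whether libraries sharing a treatment are separate cultures. P-values therefore reflect spread among these 6 libraries, possibly technical spread.

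Library totals ran from 25496323 to 36709804 counts, and the triad genes took 0.297% to 0.315% of them. Counts per triad gene and library ran from 1087 for Trdn to 38150 for Ryr1, so the counting error was at most 3.03%. Levels are given as CPM, counts scaled by the TMM-adjusted library size. Of 14 listed myotube markers, Mymk and Mymx were absent from the count tables and the other 12 passed the filter. Passing alone does not tell cell types apart, as all 12 cycling markers passed too. The summed level of the 12 myotube markers was 21580 to 22900 CPM with DMSO and 21250 to 24940 CPM with Sardomozide. This sum was above that of every other marker list in all libraries. Of these 12, Myog rose, Myh8 fell and 10 did not pass. The highest myotube sum, 24940 CPM, was that of Sardomozide replicate 2. There the titin gene Ttn had 4043 CPM, against 1610 and 1372 CPM in Sardomozide replicates 1 and 3. The summed undifferentiated myoblast markers were 723 to 734 CPM with DMSO and 687 to 707 CPM with Sardomozide (0 rose, 2 fell of 9 tested), the cycling markers 483 to 505 and 492 to 565 CPM (3 rose, 0 fell of 12), and the fibroblast markers 7561 to 9064 and 7897 to 8937 CPM (0 rose, 1 fell of 6). Most of the fibroblast sum came from the collagen genes Col3a1 and Col1a1 (means of 5616 and 2876 CPM with DMSO). Dcn, Pdgfra, Dpt and Fap had at most 20.7 CPM in any library, Lum and Thy1 at most 3 counts, and Tcf21 was at 0. Cardiac markers summed to 46 to 48.9 CPM with DMSO and 25.8 to 34.6 CPM with Sardomozide, where Myh6 fell and Myl7 was at 0 in all libraries. Neuronal markers summed to 32.8 to 47.8 and 21.3 to 24 CPM, where Tubb3 and Map2 fell and Rbfox3 and Snap25 were at 0. Adipocyte, leukocyte and endothelial markers summed to at most 4.56 CPM in any library. The ribosomal precursor Rn45s took 0.909% to 1.17% of counts with DMSO and 1.17% to 1.42% with Sardomozide. The part of these markers and of Rn45s in the results on triad genes was not tested.

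Sardomozide replicate 2 stood apart for very long transcripts. Relative to the other Sardomozide libraries, its 46 genes with a transcript of at least 15 kb had a median log2 deviation of 0.27, against −0.011 for the 5837 genes of 2 to 5 kb. Titin, the longest, had 4043 CPM in this library and 1372 to 1745 CPM in the other 5. Ryr1 and Ryr3 have transcripts of this length (15358 and 15468 bases), so their values are also given without this library.

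Sequences upstream are shown for Cacna1s and Cacnb1, voltage sensor subunit genes that moved in opposite directions in the fit of all 6 libraries. The Cacnb1 call was lost without some single libraries, as given below. The sequences come from RefSeq windows of 250 bases before to 50 after a transcript start (GRCm38.p6). These windows matched 4 of the 10 genes (Cacna1s, Cacnb1, Jph2 and Ryr1), and Cacng1, which also fell, was not matched. Capitals mark the E-box CANNTG, the sequence bound by myogenic factors such as MyoD and myogenin. The pattern is its own reverse complement, so a match on either strand is a match on both. The matched bases can differ between strands and are given as printed. The windows lie at chr1:136052561-136052860 on the plus strand for Cacna1s, and at chr11:98022578-98022877 (upstream start) and chr11:98018323-98018622 (downstream start) on the minus strand for Cacnb1.
Cacna1s: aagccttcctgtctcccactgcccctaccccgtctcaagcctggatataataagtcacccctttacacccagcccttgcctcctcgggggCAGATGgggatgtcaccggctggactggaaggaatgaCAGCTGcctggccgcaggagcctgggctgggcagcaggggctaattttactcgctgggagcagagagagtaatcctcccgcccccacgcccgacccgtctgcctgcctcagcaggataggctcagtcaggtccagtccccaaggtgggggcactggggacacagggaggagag
Cacnb1, upstream start: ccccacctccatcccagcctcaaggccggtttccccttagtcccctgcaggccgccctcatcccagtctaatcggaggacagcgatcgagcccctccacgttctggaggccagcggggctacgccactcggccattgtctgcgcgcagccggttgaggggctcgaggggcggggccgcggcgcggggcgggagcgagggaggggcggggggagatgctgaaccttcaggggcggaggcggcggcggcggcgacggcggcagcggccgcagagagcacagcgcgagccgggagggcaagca
Cacnb1, downstream start: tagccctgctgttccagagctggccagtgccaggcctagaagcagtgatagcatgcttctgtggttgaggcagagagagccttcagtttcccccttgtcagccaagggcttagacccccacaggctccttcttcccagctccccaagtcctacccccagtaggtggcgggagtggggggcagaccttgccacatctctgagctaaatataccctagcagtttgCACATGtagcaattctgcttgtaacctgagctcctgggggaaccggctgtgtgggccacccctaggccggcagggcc
The Cacna1s window held 2 E-boxes, CAGATG at −160 and CAGCTG at −123 from the start. The downstream Cacnb1 window held 1, CACATG at −27, and the upstream Cacnb1 window held 0. Among all 32851 windows of the same length in the table, 72.3% held an E-box and 16.3% held CAGCTG, which overlaps the E-box by definition. CAGCTG was also found in both Jph2 windows (at −9 and −29, the same bases counted from different starts), and the Ryr1 window held no E-box. The MEF2 and CArG motifs, searched on both strands and found in 3.19% and 1.63% of windows, matched none of the 6 windows of these genes, nor did TATAAA (13.6%). The MCAT motif CATTCC, searched on both strands and found in 14.7% of windows, matched the Cacna1s window on the opposite strand, read there as GGAATG at −130, and none of the other 5. These matches describe letters only, and no binding was measured.

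Of the 10 triad genes, Cacnb1 rose (10%) and Cacna1s, Trdn and Cacng1 fell (30%) in edgeR's quasi-likelihood test with adjustment over all genes, and 6 did not pass. Over all genes tested 16.3% passed, 7.88% higher and 8.45% lower. The median log2 fold change of the 10 genes was 0.032, and that of all genes −0.00082. The changes that passed were between 1.11-fold and 1.29-fold. The groups did not overlap for 6 of the 10 (3 higher, 3 lower), against 33.5% of all genes. The plot of CPM by library shows each value. In bulk RNA, fewer cells with a transcript and less of it per cell cannot be told apart.

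**Figure D1:**
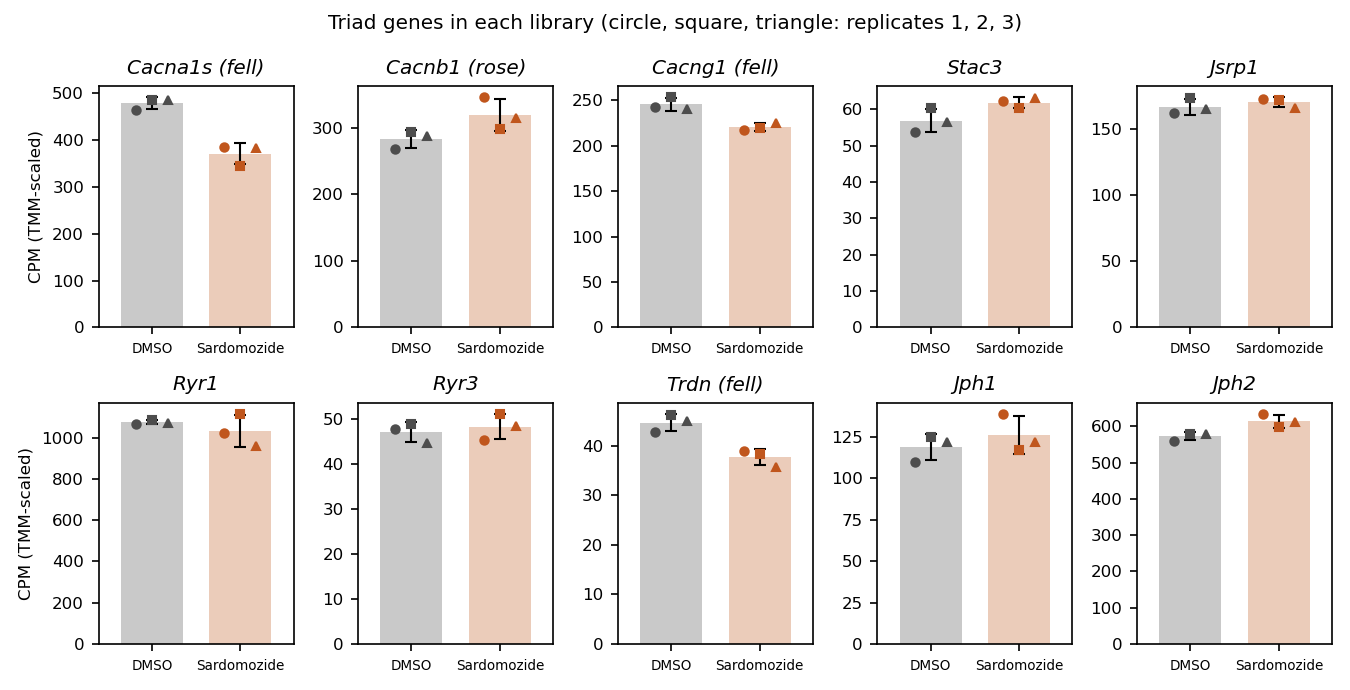
Level of each triad gene in CPM (vertical axes from 0, different for each gene) by group; points are libraries, bars the mean and error bars the SD of 3 libraries. The Cacna1s, Trdn and Cacng1 libraries with Sardomozide all lie below those with DMSO. The Cacnb1, Stac3 and Jph2 libraries with Sardomozide all lie above, though Stac3 and Jph2 did not pass. Ryr1 overlaps, with Sardomozide replicate 2 highest at 1114 CPM.

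Cacna1s encodes the pore and voltage-sensing subunit of the dihydropyridine receptor (chromosome 1, 136052750 to 136119822, GRCm38, plus strand). It had 464, 486 and 485.5 CPM in DMSO replicates 1 to 3 and 384, 345 and 384 CPM in Sardomozide replicates 1 to 3. Every Sardomozide library lay below every DMSO library, by at least the gap between 384 and 464 CPM. The group means were 478.5 ± 12.4 and 371 ± 22.6 CPM (SD, n = 3), and the gene fell by 22.5% (log2 fold change −0.37 with a standard error of 0.047, edgeR adjusted p = 1.92e-05). Errors after later log2 fold changes are standard errors too. Its 95% interval on the log2 scale ran from −0.46 to −0.27, and it ranked 87 of 13076 by p. The adjusted p stayed at or below 0.000271 in all 17 alternative settings, those without Sardomozide replicate 2 and with the length trend removed included.

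Cacnb1 encodes the intracellular beta subunit that brings the sensor to the junction (chromosome 11, 98001508 to 98023034, minus strand). It had 268, 293 and 288 CPM with DMSO and 346, 298 and 314 CPM with Sardomozide. The groups did not overlap, but Sardomozide replicate 2 (298 CPM) lay close to DMSO replicate 2 (293 CPM), and replicate 1 was the highest. Cacnb1 rose by 12.7% (log2 fold change 0.17 ± 0.052, edgeR adjusted p = 0.0294). This call was lost without DMSO replicate 1 (adjusted p = 0.158), DMSO replicate 3 (0.065), Sardomozide replicate 1 (0.118, log2 fold change 0.11) or Sardomozide replicate 3 (0.0576).

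Cacng1 encodes the gamma subunit, a membrane protein of the same complex (chromosome 11, 107703218 to 107716522, minus strand). It had 242, 253 and 241 CPM with DMSO and 217.5, 219 and 225 CPM with Sardomozide, so all Sardomozide libraries were lower. The gene fell by 10% in the fit (log2 fold change −0.15 ± 0.041, edgeR adjusted p = 0.015). Without DMSO replicate 2, the highest library, the adjusted p was 0.085. The alpha and gamma subunit genes of the voltage sensor were thus lower and the beta subunit gene higher in the same libraries.

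Stac3 encodes an adaptor needed for the sensor to reach the membrane and couple to the release channel (chromosome 10, 127501686 to 127508823, plus strand). It had 53.9, 60.2 and 56.4 CPM with DMSO and 62.2, 60.3 and 63 CPM with Sardomozide. The groups touched without overlapping, at 60.23 and 60.26 CPM. It did not pass (log2 fold change 0.12 ± 0.055, edgeR adjusted p = 0.149; 95% interval 0.0051 to 0.23). Jsrp1, whose product JP-45 binds the sensor and calsequestrin (chromosome 10, 80808496 to 80813498, minus strand), had 162, 174 and 165 CPM with DMSO and 173, 173 and 167 CPM with Sardomozide. These groups overlapped, and the 95% interval of its log2 fold change, −0.06 to 0.12, spans 0 (edgeR adjusted p = 0.701).

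Ryr1 encodes the calcium release channel of skeletal muscle (chromosome 7, 29003344 to 29125179, minus strand). It had 1066, 1085 and 1069 CPM with DMSO and 1022, 1114 and 959 CPM with Sardomozide. The DMSO libraries lay close together, while Sardomozide replicate 2 was above all of them and replicates 1 and 3 below. The means were 1073 ± 10.2 and 1032 ± 78.2 CPM (SD, n = 3). Ryr1 did not pass (log2 fold change −0.06 ± 0.05, edgeR adjusted p = 0.486), with a 95% interval from −0.16 to 0.047. Without Sardomozide replicate 2 the log2 fold change was −0.12 (adjusted p = 0.116), without Sardomozide replicate 3 it was −0.0068 (0.953), and with each library's trend on transcript length removed it was −0.08 (0.204).

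Ryr3, the minor release channel of developing muscle (chromosome 2, 112631355 to 113217096, minus strand), had 47.8, 49.1 and 44.7 CPM with DMSO and 45.5, 51.1 and 48.5 CPM with Sardomozide. The groups overlapped, and the log2 fold change of 0.035 ± 0.061 (edgeR adjusted p = 0.756; 95% interval −0.09 to 0.16) changed sign without DMSO replicate 3 or Sardomozide replicate 2 (−0.0023 and −0.0064). The heart channel gene Ryr2 had 2 counts in DMSO replicate 1 and 0 in the other 5 libraries, which is under the 3 counts that a count of 0 allows.

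Trdn encodes triadin, a reticulum membrane protein that links the release channel to calsequestrin (chromosome 10, 33080554 to 33476709, plus strand). It had 42.8, 46.2 and 45 CPM with DMSO and 38.9, 38.4 and 35.8 CPM with Sardomozide, with no overlap. Group means were 44.7 ± 1.73 and 37.7 ± 1.67 CPM (SD, n = 3). Trdn fell by 15.6% (log2 fold change −0.24 ± 0.06, edgeR adjusted p = 0.00802). It passed in all 17 alternative settings, with adjusted p up to 0.046 (without DMSO replicate 2).

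The junctophilins tether the T-tubule to the reticulum. Jph2 (chromosome 2, 163336242 to 163397993, minus strand) had 560, 579 and 579.5 CPM with DMSO and 634, 598 and 611 CPM with Sardomozide. All Sardomozide libraries were higher, but the gene did not pass (log2 fold change 0.1 ± 0.042, edgeR adjusted p = 0.112; 95% interval 0.013 to 0.19). Jph1 (chromosome 1, 16964560 to 17097889, minus strand) had 110, 125 and 122 CPM with DMSO and 139, 117 and 122 CPM with Sardomozide, so its groups overlapped (log2 fold change 0.08 ± 0.063, edgeR adjusted p = 0.425; 95% interval −0.053 to 0.22).

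**Figure D2:**
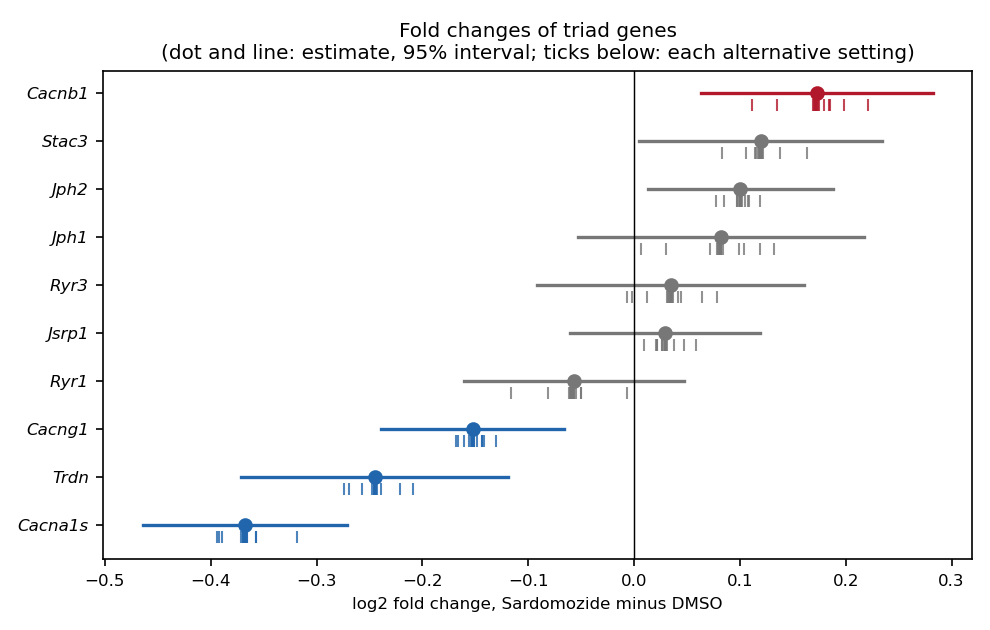
Log2 fold change of each triad gene (horizontal axis, Sardomozide minus DMSO); dots are estimates, lines 95% intervals, and ticks the values under 17 alternative settings, with red for genes that rose, blue for those that fell and grey for those that did not pass. Cacna1s lies lowest, with all ticks between −0.39 and −0.32, while the intervals of Ryr1, Ryr3, Jsrp1 and Jph1 span 0.

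GENCODE places exons of a gene model on the opposite strand over those of 5 of the 10 genes (Ryr1, Ryr3, Cacna1s, Cacnb1 and Jph1). Since the use of strand in counting is not stated, reads from such partners cannot be told apart. For Ryr3 the partner is Aven, which counted 283 to 385 reads in the DMSO libraries and 377 to 520 in the Sardomozide libraries (log2 fold change 0.15, edgeR adjusted p = 0.355).

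Ratios within a library do not depend on its scaling, and 3 were compared. Per 100 Ryr1 counts, the DMSO libraries held 43.5, 44.8 and 45.4 of Cacna1s, and the Sardomozide libraries 37.6, 30.9 and 40. The groups did not overlap, and the log2 ratio was lower by 0.309 with Sardomozide. A two-sided exact permutation test gave p = 0.1, the smallest possible for 3 against 3 (0.3 after Benjamini-Hochberg adjustment over the 3 ratios). The lowest value came from Sardomozide replicate 2, the library with more reads on long transcripts, and without it the difference was −0.2. Ryr3 stood at 4.4 ± 0.185 counts per 100 of Ryr1 with DMSO and 4.7 ± 0.321 with Sardomozide (SD, n = 3; exact permutation p = 0.3, adjusted 0.45). Jph2 stood at 482 ± 23.8 and 489 ± 28.7 counts per 100 of Jph1 (SD, n = 3; exact permutation p = 0.9). The last of these differences changed sign without DMSO replicate 2 or Sardomozide replicate 2.

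Levels of different genes were compared per kilobase of the longest annotated transcript. With DMSO the order was Cacng1 (196 ± 5.34 CPM per kb, SD, n = 3), Jph2 (136 ± 2.63), Jsrp1 (126 ± 4.56), Cacnb1 (83.4 ± 3.95), Cacna1s (76.6 ± 1.99), Ryr1 (69.9 ± 0.662), Stac3 (31.8 ± 1.79), Jph1 (24.8 ± 1.65), Trdn (9.89 ± 0.383) and Ryr3 (3.05 ± 0.144). On this length no pair of neighbours overlapped over the DMSO libraries, nor over the Sardomozide libraries in their own order. The Cacng1 level exceeded that of 98.1% of tested genes with a length, and the Ryr3 level that of 29.3%. With Sardomozide the order differed at 1 place: Ryr1 (67.2 ± 5.09 CPM per kb) lay above Cacna1s (59.3 ± 3.61). This exchange rests on the length used. Over the union of all annotated exons, where Ryr1 has 21838 bases and Cacna1s 6550, Cacna1s lay above Ryr1 in both groups (73.1 against 49.2 CPM per kb with DMSO). On that length Cacna1s also lay above Cacnb1 (62.5) and Jph1 (23.8) above Stac3 (22.4) with DMSO, so the order of these neighbours also rests on the length.

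**Figure D3:**
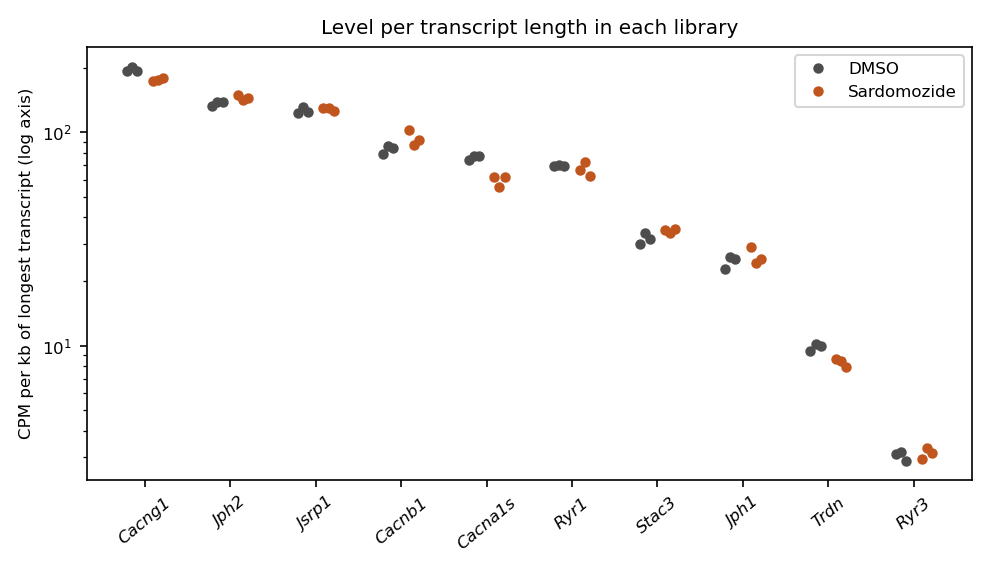
Level of each triad gene in CPM per kb of its longest transcript (log axis), genes ordered by their DMSO mean; each point is 1 library, grey for DMSO and orange for Sardomozide. Levels run from 196 for Cacng1 to 3.05 for Ryr3 with DMSO, and the Cacna1s points with Sardomozide lie below those of Ryr1.

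Over the 6 libraries, the centred log2 CPM profile of Cacna1s was nearest to those of Ammecr1, Parp3 and Trp63, with root mean square differences of 0.022, 0.023 and 0.027 among 10593 genes compared. Their log2 fold changes were −0.35, −0.36 and −0.35, values near that of Cacna1s by the choice of like profiles, given as a description. The profile of Ryr1 was nearest to those of Clic4, Zfp87 and Rwdd1 (0.012, 0.015 and 0.016).

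Channel isoforms and further subunits were mostly at low levels. Of 31 listed, 16 were tested, 0 rose, 4 fell and 12 did not pass (25% called, against 16.3% of all genes), with a median log2 fold change of −0.17. Cacnb3, another beta subunit gene, had 128 ± 1.99 CPM with DMSO and 109 ± 1.62 CPM with Sardomozide (SD, n = 3). It fell by 14.8% (edgeR adjusted p = 0.00079), whereas Cacnb1 rose in the fit of all 6 libraries. Itpr3, an inositol trisphosphate receptor gene, fell from 122 ± 9.5 to 100.2 ± 4.08 CPM (edgeR adjusted p = 0.00126). The alpha-2-delta gene Cacna2d2 and the T-type channel gene Cacna1h fell by 14.7% and 39.6% (edgeR adjusted p = 0.0192 and 0.0214). Cacna1h was at a low level, 4.13 ± 0.992 CPM with DMSO (SD, n = 3). Cacna1g, a T-type channel gene with 46.6 ± 3.79 CPM, did not pass (log2 fold change −0.045 ± 0.063, edgeR adjusted p = 0.684). Cacna2d1, the main alpha-2-delta gene of muscle, had a log2 fold change of 0.026 ± 0.041. Cacna1c and Cacna1d, L-type pore genes of heart and other tissues, were at 0 in all libraries. Of the list, 2 fell without DMSO replicate 3 or Sardomozide replicate 1.

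Lumenal and regulatory partners of the release channel moved in both directions: of 23 tested, 3 rose, 4 fell and 16 did not pass (30.4% called, against 16.3% of all genes, 7.88% higher and 8.45% lower; median −0.032). Tmem38b, which encodes the counter-ion channel TRIC-B, rose by 36.9% (115 ± 7.05 CPM with DMSO, 158 ± 3.11 with Sardomozide, SD, n = 3; edgeR adjusted p = 1.81e-06). The related gene Tmem38a, with a higher level of 355 ± 15.3 CPM with DMSO, did not pass (log2 fold change 0.061 ± 0.045, edgeR adjusted p = 0.393). Casq2, the cardiac and slow-muscle calsequestrin gene, rose by 28.1%, and Srl, the gene of the lumenal protein sarcalumenin, by 20.7% (edgeR adjusted p = 3.85e-05 and 0.000517). Casq1, the calsequestrin gene of fast muscle, did not pass (log2 fold change 0.16 ± 0.094). Camk2b fell by 16.4% (edgeR adjusted p = 0.0126). Camk2g and Sri fell as well (edgeR adjusted p = 0.0181 and 0.022). The falls numbered 2 without DMSO replicate 1 or Sardomozide replicate 3 and 0 without DMSO replicate 2.

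Of 21 tested genes that shape the T-tubule and triad membranes, 3 rose, 5 fell and 13 did not pass (38.1% called, against 16.3% of all genes; median −0.031). Cav3, the muscle caveolin gene, fell by 21.1%, and Dysf, the membrane repair gene dysferlin, rose by 22.2% (edgeR adjusted p = 7.42e-05 for both). Rrad, whose product binds calcium channel beta subunits, rose by 20.3%, and the reticulon gene Rtn2 fell by 15.2% (edgeR adjusted p = 0.000436 and 0.00156). Sypl2, the gene of the triad protein mitsugumin-29, rose (log2 fold change 0.32 ± 0.1, edgeR adjusted p = 0.0315). Bin1, which bends the T-tubule membrane, did not pass (0.15 ± 0.066).

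Of 20 tested genes of reuptake, buffering and store-operated entry, 1 rose, 7 fell and 12 did not pass (40% called and 35% lower, against 16.3% and 8.45% of all genes; median −0.092). Stim1 and Stim2, both sensors of stored calcium, moved in opposite directions, Stim1 from 94.3 ± 3.34 to 72.7 ± 1.79 CPM and Stim2 from 133 ± 2.35 to 157 ± 2.16 CPM (SD, n = 3; edgeR adjusted p = 2.26e-05 and 0.000497). Atp2a1, the fast-muscle calcium pump gene, fell by 17.1%, and the exchanger gene Slc8a3 by 59.7% from a low level of 3.18 ± 0.433 CPM (edgeR adjusted p = 0.000394 and 0.000771). Without DMSO replicate 1, 4 of the list fell.

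Of 19 tested genes of membrane excitation, 3 rose, 6 fell and 10 did not pass (47.4% called, against 16.3% of all genes; median 0.0068, mean −0.23). The receptor subunit gene Chrne and the sodium pump subunit gene Atp1b2 had the largest falls of the list, 68.3% and 77.7%. Scn4a, the sodium channel gene of adult muscle, fell (log2 fold change −0.14 ± 0.045, edgeR adjusted p = 0.0334). Without Sardomozide replicate 2, 5 of the list rose.

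**Figure D4:**
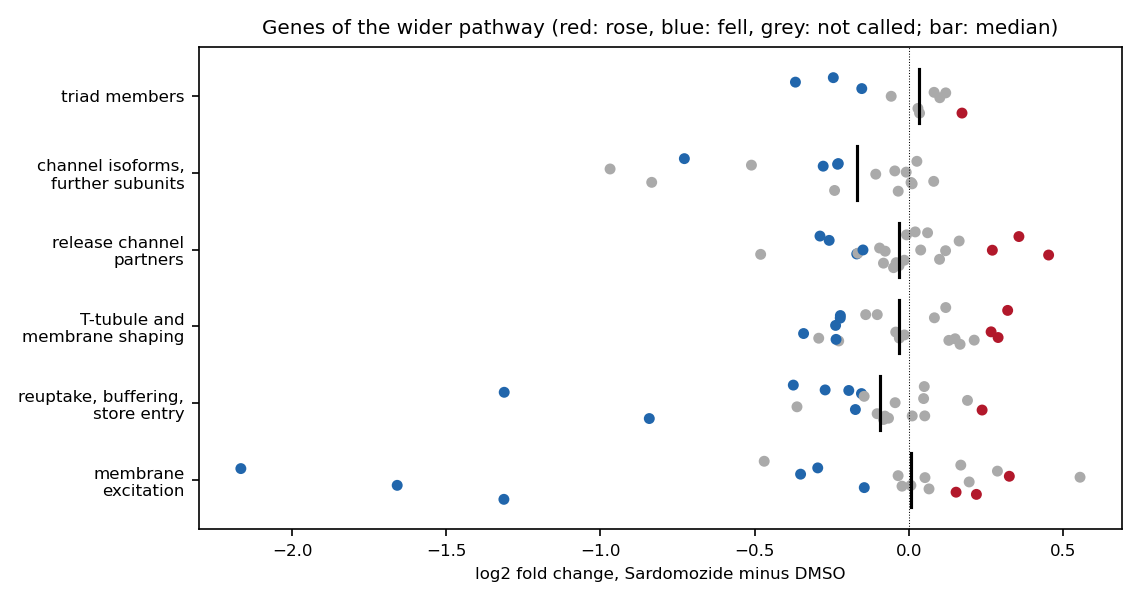
Log2 fold changes (horizontal axis, Sardomozide minus DMSO) of the 10 triad genes and of tested genes in 5 lists of the wider pathway (rows); each dot is 1 gene, red if it rose, blue if it fell and grey if it did not pass, and bars mark medians. Triad genes lie between −0.37 and 0.17, while the membrane excitation row reaches −2.17.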

How the data were processed

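Read counts per gene symbol were deposited by the authors as 1 table per library. Per the submitters' processing notes, the tools were STAR, StringTie and DESeq2 and the builds GRCm38 and mm10. Tool versions, annotation, strand use and the treatment of multi-mapped reads were not given in the sources used here. Raw counts were filtered with filterByExpr (10 counts scaled to library size, 15 in total), scaled by TMM and tested two-sided by quasi-likelihood in edgeR 4.0.16 (R 4.3.3, robust, treatment only). Benjamini-Hochberg adjustment ran over 13076 genes, with calls under 0.05. Standard errors come from the fold change and F statistic. Coordinates and transcript lengths come from GENCODE M21 (GRCm38), where 96.3% of tested symbols matched. The steps were tested on simulated counts. Pairs of replicates differed by more than sampling noise (chi-square per degree of freedom 5.45 to 16.1), so all were kept. Alternatives covered scaling, filters, DESeq2 1.42.0, limma-voom (limma 3.58.1), estimation without robustness, a replicate block, thinning and leaving out each library, and, added after seeing the data, removal of each library's trend on transcript length. The triad genes, the other lists and the tests were chosen with earlier results of these data known. Named genes were all 10 triad genes, up to 4 called genes with the smallest adjusted p per list, and the 3 most alike to Cacna1s and Ryr1. Ryr2, Aven, Titin, Sypl2, Cacna1c, Cacna1d, Cacna1g, Cacna2d1, Casq1, Tmem38a, Bin1, Scn4a, Camk2g, Sri and the marker genes named were chosen after their values were seen. A few genes taken by the rule are left out.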

Additional observations from a re-analysis of the deposited data

How the results depend on the processing

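Cacna1s and Trdn kept their call and Ryr1, Stac3, Jsrp1, Jph1 and Jph2 stayed uncalled in all 17 alternative settings. With the replicate number as a replicate block, 0 triad genes rose instead of 1, because Cacnb1 had an adjusted p of 0.0654 (log2 fold change 0.17); 3 still fell. The correlations of deviations for equal numbers were 0.0219, −0.0233 and −0.0178, and not every library correlated best with its own number. These values showed no pairing by number. With so few libraries they cannot show that the numbers carry none, as the labels do not state which libraries share a culture. Over the libraries left out in turn, 0 to 1 triad genes rose and 2 to 3 fell. All genes called numbered 1326 to 1952 (620 to 927 higher, 706 to 1025 lower), lowest without DMSO replicate 1. Of the channel isoforms 0 rose and 2 to 5 fell, of the release channel partners 3 to 4 rose and 0 to 4 fell, of the T-tubule genes 2 to 4 rose and 5 to 6 fell, of the reuptake genes 1 rose and 4 to 7 fell, and of the excitation genes 2 to 5 rose and 4 to 6 fell. Such fits have fewer samples. With no filter, 5 T-tubule genes and 5 excitation genes rose. Over the same fits the log2 ratio difference ran from 0.0398 to 0.133 for Ryr3 to Ryr1, from −0.386 to −0.201 for Cacna1s to Ryr1 and from −0.0125 to 0.0682 for Jph2 to Jph1, which was −0.0101 without DMSO replicate 2 and −0.0125 without Sardomozide replicate 2. Sign changes among single genes were those of Ryr3 (−0.00232 without DMSO replicate 3, range −0.0064 to 0.0782 over libraries left out) and Clic4 (0.00281 without Sardomozide replicate 3, range −0.102 to 0.00281). The lowest count of a triad gene was 1087, and thinning to the smallest library changed none of their calls. Lower depths were not tried, so thinning cannot show that depth sets no limit. For Ryr3 the change of 2.45% was smaller than the counting error of 2.87% in its library with the lowest count.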
